A study of Mus musculus with 8 samples.

Results

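The genes described here are 9 genes of the receiving side of the synapse: the kinase subunits Camk2a and Camk2b, the scaffolds Dlg2, Dlg4, Shank1, Shank2 and Homer1, and the adhesion genes Nlgn1 and Nlgn3. They were found through the RefSeq accession that a probe carries on the array, and all 9 were measured, by 19 probes, among 24635 genes tested. RNA came from male mouse embryonic stem cell cultures turned into motor neurons, in a line whose titles name Hb9-GFP, a green fluorescent reporter driven by the promoter of the motor neuron gene Mnx1. Litchi knockout cells and control cells carrying the same reporter were each sampled on day 7 and on day 9, which makes 4 groups of 2 arrays. All cultures had retinoic acid and Sonic hedgehog from day 2 to day 5, were then dissociated into single cells, and were kept in GDNF, a neurotrophic factor for motor neurons, until sampling. The labels do not say how Litchi was inactivated or how many clones were used. Litchi itself was not measured under that name here, so the knockout label could not be checked, and Mnx1 was not analysed here. Whether the arrays of a group come from separate cultures is not labelled, and p-values here reflect only how far these arrays differ, which can be technical.

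At an excitatory synapse, glutamate receptors sit in a dense protein lattice, the postsynaptic density. Dlg4 encodes PSD-95 and Dlg2 encodes PSD-93, which hold receptors and adhesion proteins at the membrane. Shank proteins and Homer1 form a deeper layer that links this lattice to the actin skeleton and to metabotropic receptors. Camk2a and Camk2b encode subunits of CaMKII, a kinase that is switched on by calcium and needed for long-lasting changes of synaptic strength. Neuroligins, encoded by the Nlgn genes, span the membrane and bind neurexins on the sending axon. Spinal motor neurons carry such synapses on their dendrites, while the nerve to muscle synapse has its own postsynaptic side in the muscle fibre.

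RefSeq promoter windows (assembly GRCm38.p6), which run from 250 bases before to 50 bases after a transcript start, were at hand for 5 of the 9 genes: 1 for Camk2b, 3 each for Dlg2 and Dlg4, and 2 each for Homer1 and Nlgn1, 11 in all. The array tables do not say from which of these starts a probe's transcript begins. Those shown run 5′ to 3′ on the gene's strand: the windows of Camk2b and Dlg4, which share chromosome 11, of Homer1, and of Nlgn1, which was called in both comparisons of the days. Capitals mark the letters GGGCGG or their reverse complement (the GC box, bound by Sp1), TGACGT (part of the cyclic AMP response element TGACGTCA, so the motifs overlap) and TTCAGCACC (the left part of the RE1 element, bound by the neuronal gene repressor REST), searched on both strands.
Camk2b, chr11:6065699-6065998, minus strand: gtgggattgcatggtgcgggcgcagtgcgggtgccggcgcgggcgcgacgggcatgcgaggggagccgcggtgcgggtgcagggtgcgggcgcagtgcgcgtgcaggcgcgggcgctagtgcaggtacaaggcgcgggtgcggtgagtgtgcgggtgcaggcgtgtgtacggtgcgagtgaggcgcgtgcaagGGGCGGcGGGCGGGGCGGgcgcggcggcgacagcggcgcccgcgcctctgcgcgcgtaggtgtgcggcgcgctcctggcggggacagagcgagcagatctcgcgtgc
Dlg4, chr11:70023732-70024031, plus strand: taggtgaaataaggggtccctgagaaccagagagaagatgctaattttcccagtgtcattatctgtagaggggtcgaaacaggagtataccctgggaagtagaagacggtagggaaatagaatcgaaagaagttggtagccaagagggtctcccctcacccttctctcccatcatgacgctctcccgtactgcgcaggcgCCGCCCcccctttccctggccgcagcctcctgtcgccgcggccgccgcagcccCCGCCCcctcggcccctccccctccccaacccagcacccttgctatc
Homer1, chr13:93303507-93303806, plus strand: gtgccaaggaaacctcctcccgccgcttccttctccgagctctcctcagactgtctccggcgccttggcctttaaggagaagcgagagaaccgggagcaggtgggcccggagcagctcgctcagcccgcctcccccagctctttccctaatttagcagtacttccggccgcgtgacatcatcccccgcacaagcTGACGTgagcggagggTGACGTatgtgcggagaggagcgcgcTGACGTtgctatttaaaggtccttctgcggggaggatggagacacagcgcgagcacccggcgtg
Nlgn1, chr3:26153937-26154236, minus strand: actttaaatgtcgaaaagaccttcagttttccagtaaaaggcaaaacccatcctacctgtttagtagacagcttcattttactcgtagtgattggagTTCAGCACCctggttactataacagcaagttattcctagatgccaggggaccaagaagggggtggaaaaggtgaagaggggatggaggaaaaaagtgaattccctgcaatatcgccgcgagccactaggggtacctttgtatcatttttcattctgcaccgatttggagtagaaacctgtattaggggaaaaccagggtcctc

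The Camk2b window was 77.3% G and C and held 51 CpG pairs, more than 99.3% of the 32851 windows in the table, whose median was 7. It held 3 GC boxes and the Dlg4 window shown held 2, while the other Dlg4 windows held 0. At least 1 was found in 35.7% of all windows. The Homer1 window shown held TGACGT 3 times and the other Homer1 window 0 times, a motif found in 7.51% of windows. The letters TGACGT were added to the search after the window shown had been read. The Nlgn1 window shown held TTCAGCACC once and the other Nlgn1 window 0 times, against 0.371% of windows. For Dlg4, Homer1 and Nlgn1 the window shown is thus the one that held the marked letters. The TATA box (TATAAA), in 13.6% of all windows, was found in 1 of the 11, a Dlg2 window that also held the E-box CAGCTG, found in 16.3% of all windows. These are matches of letters and do not show that a factor binds there.

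Values are log2 processed signals relative to the 75th percentile of their array, so 0 is as bright as that percentile and -1 is 2 times dimmer. Probes differ in how well they bind, so a level is compared only between arrays for 1 probe. Between arrays of 1 group the values correlated across genes at r of 0.989 to 0.994, and between groups at 0.962 to 0.988. Of the 19 probes, 18 were kept, which asked that some group have both its arrays well above background. The exception was a second Dlg2 probe, above background on 1 of 8 arrays. With 2 arrays in a group, precision is limited by their number.

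**Figure D1:**
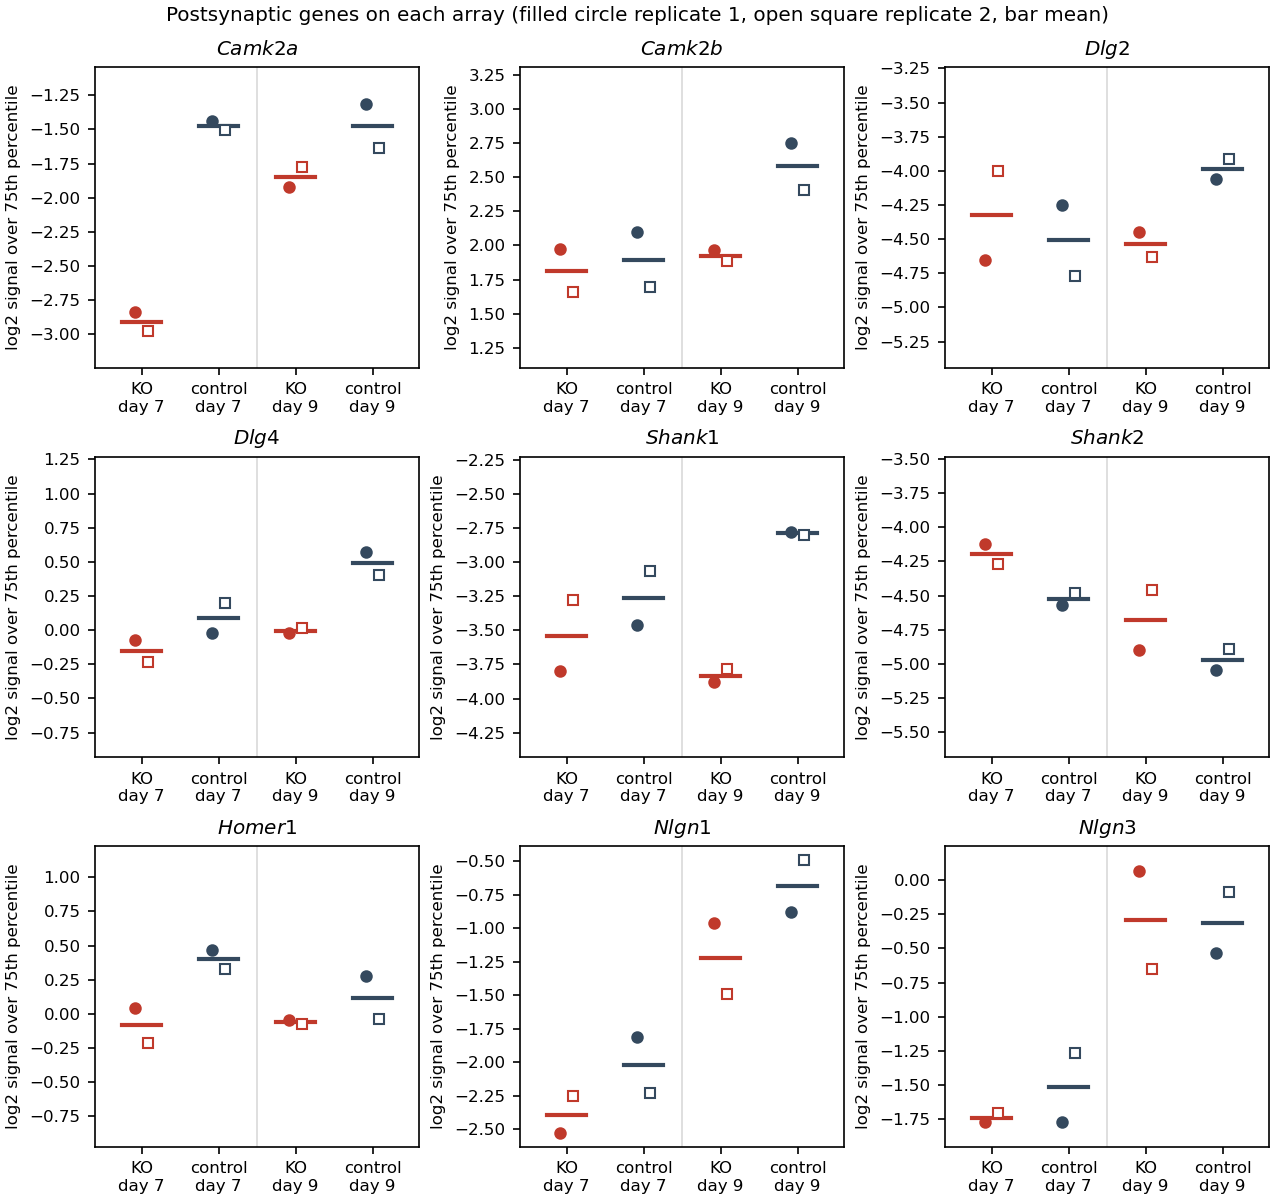
Log2 signal over the array's 75th percentile (y axis) of each of the 9 genes on the 8 arrays, by group (x axis, knockout left of control on each day); points are arrays and bars are group means of 2 arrays. Camk2a on the knockout day 7 arrays, at -2.84 and -2.98, lies below all 6 other arrays, and Nlgn1 and Nlgn3 lie higher on all day 9 arrays than on all day 7 arrays.

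The first comparison was of knockout with control cells on day 7. Camk2a, the alpha subunit of CaMKII, fell in knockout cells, and no other gene of the 9 passed the test. Its signal was -2.84 and -2.98 on the knockout arrays, against -1.44 and -1.50 on the control arrays. Both knockout arrays were far below both control arrays. The mean was -2.91 ± 0.10 in knockout cells and -1.47 ± 0.05 in control cells (SD, n = 2 each), a log2 change of -1.44 ± 0.16 (SE), or 2.71-fold lower (limma adjusted p = 0.0386). That is 1 of 9 genes called lower, where 0.118% of all genes were, and 0 of 9 called higher, where 0.0974% were. In RNA from whole cultures, fewer cells of a type and less RNA per cell cannot be told apart. The Camk2a call was lost in 13 of 18 alternatives, with adjusted p between 0.0507 and 0.231, among them quantile normalization, median scaling, the authors' deposited table and leaving out either knockout or either control array of day 7 or either knockout array of day 9. A second Camk2a probe, dimmer but above background on all 8 arrays, gave a log2 change of -0.48 ± 0.30 (limma adjusted p = 0.448).

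Of the scaffolds on day 7, Homer1, which tethers metabotropic glutamate receptors, was 0.05 and -0.22 on the knockout arrays, against 0.47 and 0.33 on the control arrays. The arrays did not overlap, and the log2 change of -0.48 ± 0.17 did not pass (limma adjusted p = 0.204). Dlg4 was -0.07 and -0.24 in knockout cells, against -0.02 and 0.20 in control cells, again without overlap (log2 change -0.24 ± 0.15, adjusted p = 0.424). Shank2 went the other way, at -4.12 and -4.27 in knockout cells, against -4.57 and -4.48 in control cells (0.33 ± 0.18, adjusted p = 0.376). Among the adhesion genes, Nlgn1 was -2.53 and -2.25 in knockout cells, against -1.81 and -2.23 in control cells, with the nearest arrays almost level (-0.37 ± 0.26, adjusted p = 0.488). In Camk2b, Dlg2, Shank1 and Nlgn3 the arrays of the groups overlapped, with log2 changes of -0.08, 0.18, -0.28 and -0.22. In all, 4 of the 9 genes had knockout arrays wholly below and 1 wholly above the control arrays, beside 27.8% and 20.5% of all genes. The median log2 change of the 9 was -0.24, and that of all genes was -0.05.

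The same contrast was then made on day 9. Shank1, a master scaffold of the deeper layer, fell in knockout cells. It was -3.88 and -3.78 on the knockout arrays, against -2.78 and -2.80 on the control arrays. The arrays of each group were nearly level with each other, and the groups did not overlap. The mean was -3.83 ± 0.07 in knockout cells and -2.79 ± 0.02 in control cells (SD, n = 2 each), a log2 change of -1.04 ± 0.22, or 2.06-fold lower (limma adjusted p = 0.0472). This was 1 of 9 called lower, beside 3.96% of all genes, and 0 of 9 called higher, beside 1.5% (5.46% in either direction). All 3 Shank1 probes were lower in knockout cells on day 9, by -0.54 to -1.21, and 1 of the 3 was above background on only 5 of 8 arrays. The brightest, on which the call rests, was itself dim, at 62.0 to 159 intensity units over the 8 arrays. With another background correction (normexp) its change on day 9 was -0.67. Adjusted over all kept probes in place of genes, limma gave an adjusted p of 0.0519 for the probe that stands for Shank1. The call was lost in 15 of 18 alternatives, at adjusted p of 0.0503 to 0.338, and in each of the 8 that left out 1 array.

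Of the kinase genes on day 9, Camk2b, the beta subunit, which also binds actin, was 1.96 and 1.88 in knockout cells, against 2.75 and 2.41 in control cells. Both knockout arrays were below both control arrays, and the log2 change of -0.66 ± 0.21 did not pass (limma adjusted p = 0.114). Its second, dimmer probe gave -0.57 ± 0.14 (adjusted p = 0.0704). Camk2a was -1.92 and -1.78 in knockout cells, against -1.31 and -1.63 in control cells, without overlap (-0.37 ± 0.16, adjusted p = 0.198). Its second probe had the opposite sign on day 9, at 0.15 ± 0.30.

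Dlg4 was -0.02 and 0.01 in knockout cells on day 9, against 0.58 and 0.41 in control cells, with no overlap and a log2 change of -0.49 ± 0.15 (limma adjusted p = 0.102). Dlg2 was -4.45 and -4.63 in knockout cells, against -4.06 and -3.91 in control cells (-0.56 ± 0.27, adjusted p = 0.247). Homer1 was -0.04 and -0.08 in knockout cells, against 0.28 and -0.04 in control cells, so that the groups nearly touched (-0.18 ± 0.17, adjusted p = 0.541). Nlgn1 was -0.96 and -1.49 in knockout cells, against -0.88 and -0.49 in control cells (-0.54 ± 0.26, adjusted p = 0.245). Shank2 was -4.90 and -4.46 in knockout cells, against -5.05 and -4.89 in control cells, with overlap (0.29 ± 0.18, adjusted p = 0.360). Nlgn3 differed by 0.02 ± 0.30, with overlapping arrays. Knockout arrays lay wholly below control arrays in 7 of the 9 genes and wholly above in 0, beside 32.5% and 27.1% of all genes. The median log2 change was -0.49 over the 9 and -0.02 over all genes.

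**Figure D2:**
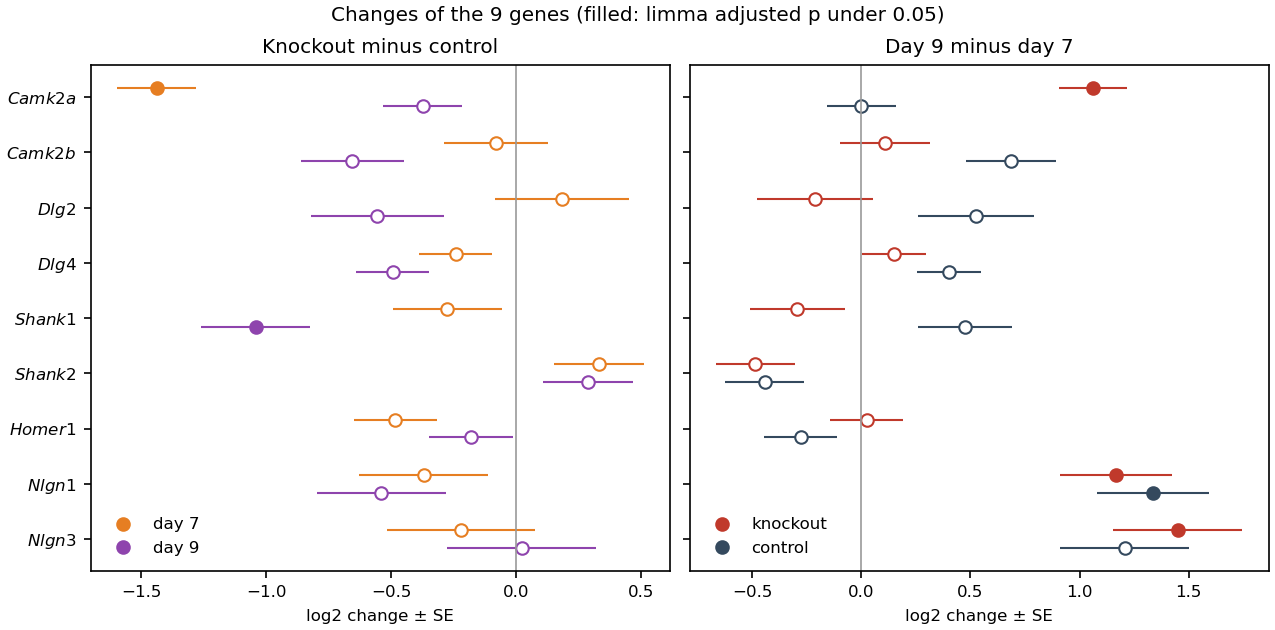
Log2 change ± SE (x axis) of each gene from the limma fit of 8 arrays, knockout minus control on each day (left) and day 9 minus day 7 in each genotype (right); filled points have an adjusted p under 0.05. Camk2a on day 7 (-1.44) and Shank1 on day 9 (-1.04) are the filled points on the left, and Nlgn1 is filled in both genotypes on the right.

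Over both days together, which sets 4 knockout arrays against 4 control arrays, Camk2a fell by 0.91 ± 0.11 (limma adjusted p = 0.0103) and Shank1 fell by 0.66 ± 0.15 (adjusted p = 0.0376). These were 2 of 9 genes called lower, beside 9.34% of all genes, and 0 of 9 called higher, beside 5.48%. Camk2a stayed called in 16 of 17 alternatives, and the exception was the fit with no filter on dim probes (adjusted p = 0.0542). Its second probe, however, gave -0.16 ± 0.21 over both days (limma adjusted p = 0.630), and with the mean of both probes the change was -0.53 ± 0.12 (adjusted p = 0.0343). Shank1 lost the call in 11 of 17 alternatives. Leaving out either knockout array or either control array of day 9, knockout replicate 1 of day 7 or control replicate 2 of day 7 ended it. Of the other 7 genes, Dlg4 came nearest to the threshold, at -0.37 ± 0.10 (adjusted p = 0.0599), and the single positive value was that of Shank2 (0.31 ± 0.13, adjusted p = 0.145). The median was -0.37 over the 9 genes and -0.04 over all genes.

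Whether the knockout effect differed between the days was tested as an interaction. It was 1.06 ± 0.22 for Camk2a, whose knockout arrays were nearer to control on day 9, with an unadjusted p of 0.00247 and a limma adjusted p of 0.713. For Shank1, where the gap was wider on day 9, it was -0.77 ± 0.31, with an unadjusted p of 0.0429 and an adjusted p of 0.825. None of the 9 genes passed by limma, while 0.00406% of all genes (1 gene) did. These 2 of the 9 had an unadjusted p under 0.05, beside 6.02% of all genes. The calls of Camk2a on day 7 and of Shank1 on day 9 are therefore not shown to be particular to those days.

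Day 9 was then set against day 7 within each genotype. Nlgn1 was -0.96 and -1.49 in knockout cells on day 9, against -2.53 and -2.25 on day 7. It rose by 1.17 ± 0.26 on the log2 scale, or 2.24-fold (limma adjusted p = 0.0434). In control cells Nlgn1 was -0.88 and -0.49 on day 9, against -1.81 and -2.23 on day 7. It rose by 1.34 ± 0.26, or 2.52-fold (adjusted p = 0.0343). Its 4 groups did not overlap and ran, from high to low, control day 9, knockout day 9, control day 7 and knockout day 7.

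Nlgn3, an X-linked neuroligin found at both excitatory and inhibitory synapses, was 0.07 and -0.65 in knockout cells on day 9, against -1.77 and -1.71 on day 7. It rose by 1.45 ± 0.30, or 2.73-fold (limma adjusted p = 0.0352). In control cells it was -0.54 and -0.09 on day 9, against -1.77 and -1.27 on day 7 (1.21 ± 0.30, adjusted p = 0.0615). All 4 arrays of day 9 were above all 4 of day 7, and within a day the genotypes overlapped. A second Nlgn3 probe, above background on 4 of 8 arrays, gave 1.43 ± 0.92 in knockout and 0.19 ± 0.92 in control cells.

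Camk2a was -1.92 and -1.78 in knockout cells on day 9, against -2.84 and -2.98 on day 7. It rose by 1.06 ± 0.16, or 2.09-fold (limma adjusted p = 0.0138). In control cells Camk2a was -1.31 and -1.63 on day 9, against -1.44 and -1.50 on day 7, a change of 0.00 ± 0.16 with overlapping arrays. From high to low the groups ran control day 7, control day 9, knockout day 9 and knockout day 7, and only the 2 control groups overlapped. The second Camk2a probe gave 0.93 ± 0.30 in knockout cells (adjusted p = 0.116) and 0.31 ± 0.30 in control cells (adjusted p = 0.573).

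These 3 genes of 9 were called higher on day 9 in knockout cells, beside 4.14% of all genes, and 0 were called lower, beside 4.17% (8.32% in either direction). In control cells 1 of 9 was called higher, beside 4.11%, and 0 lower, beside 3.26% (7.36% in either direction). In knockout cells the call was lost in 12 of 18 alternatives for Nlgn1, each of the 8 single arrays left out among them, in 8 of 18 for Nlgn3, each of the 4 knockout arrays left out among them, and in 4 of 18 for Camk2a, where leaving out either knockout array of day 9 or replicate 2 of knockout day 7 gave adjusted p of 0.0672 to 0.0870. In control cells the Nlgn1 call was lost in 9 of 18, among them the omission of any control array or of either knockout array of day 7.

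The kinase gene Camk2b had a higher mean on day 9 in control cells. It was 2.75 and 2.41 on day 9, against 2.09 and 1.70 on day 7, without overlap (0.68 ± 0.21, limma adjusted p = 0.0984). Its second probe passed there, at 1.00 ± 0.14 (adjusted p = 0.0170). That probe was far dimmer, at 52.6 to 197 intensity units over the 8 arrays, against 2103 to 7324. In knockout cells the probes gave 0.11 ± 0.21 and 0.53 ± 0.14, neither past the threshold. Shank1, Dlg4 and Dlg2 had day 9 arrays wholly above day 7 arrays in control cells, with log2 changes of 0.47 ± 0.22, 0.40 ± 0.15 and 0.53 ± 0.27, and -0.29, 0.15 and -0.21 in knockout cells. One of the 2 control day 7 arrays was below background for Dlg2. None of these passed.

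Shank2 was the gene whose day 9 arrays lay below its day 7 arrays in both genotypes. It was -4.90 and -4.46 in knockout cells on day 9, against -4.12 and -4.27 on day 7 (-0.49 ± 0.18, limma adjusted p = 0.151). In control cells it was -5.05 and -4.89 on day 9, against -4.57 and -4.48 on day 7 (-0.44 ± 0.18, adjusted p = 0.182). Its signal was dim, 23.7 to 97.1 intensity units over the 8 arrays, though above background on all of them. Over the 9 genes, day 9 arrays lay wholly above day 7 arrays in 4 genes and wholly below in 1 in knockout cells, beside 22.1% and 35.9% of all genes. In control cells this held for 6 and 2 of the 9, beside 18.9% and 35.9%. Median log2 changes over the 9 were 0.11 in knockout and 0.47 in control cells, where those of all genes were -0.12 in each.

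Homer1 is read by 5 probes, which carry 2 accessions: NM_147176 on 2 probes and NM_011982 on 3. The gene makes long forms, which cross-link partners, and a short form induced by activity that breaks those links, and the array tables do not say which form a probe reads. The brightest probe (A_55_P1982111, NM_147176) had values of -0.04 and -0.08 in knockout cells on day 9, against 0.05 and -0.22 on day 7, and of 0.28 and -0.04 in control cells on day 9, against 0.47 and 0.33 on day 7. The knockout arrays overlapped between the days and the control arrays did not. A dimmer probe (A_55_P1982121, NM_011982) was -4.69 and -4.28 in control cells on day 9, against -3.68 and -3.70 on day 7. It fell by 0.80 ± 0.17 (limma adjusted p = 0.0497) over the probes tested, and in knockout cells its change was -0.56 ± 0.17 (adjusted p = 0.108). All 5 probes were negative between genotypes on both days, from -0.02 to -0.48 on day 7 and from -0.09 to -0.29 on day 9, and none passed.

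**Figure D3:**
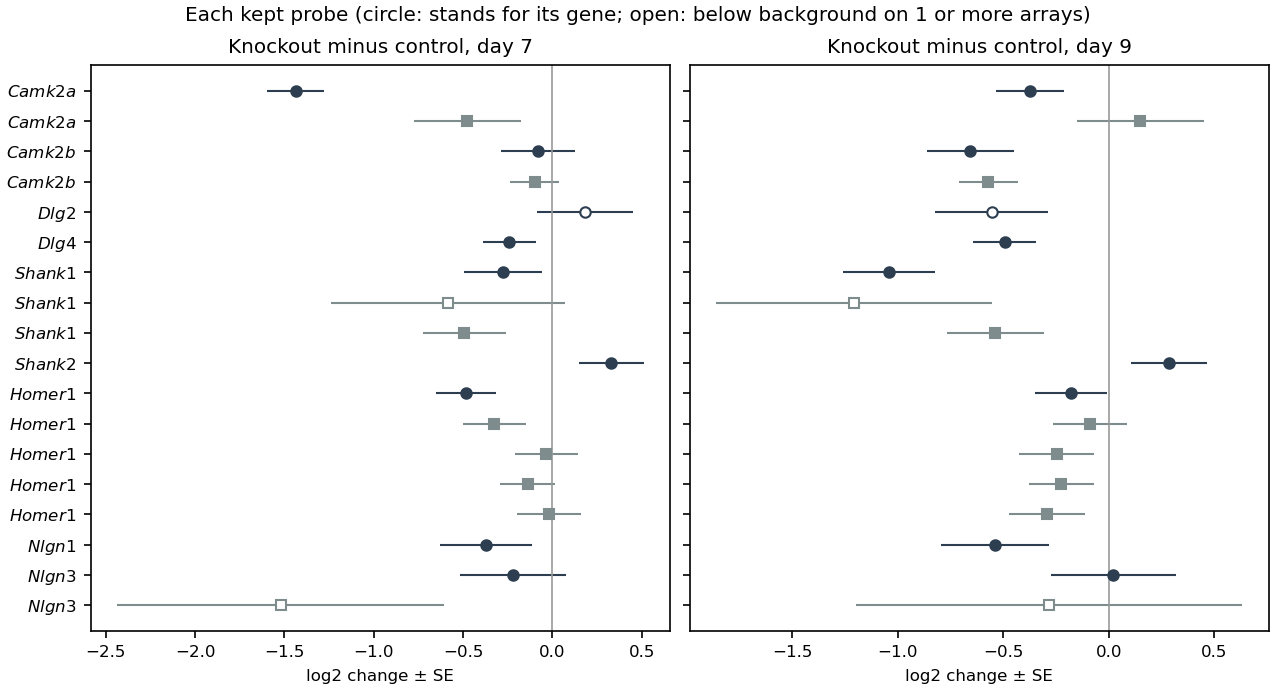
Log2 change ± SE (x axis) of each of the 18 kept probes, knockout minus control, on day 7 (left) and day 9 (right); circles stand for their gene, squares are further probes, and open symbols were below background on at least 1 array. The 5 Homer1 probes and the 3 Shank1 probes lie left of 0 on both days, and the 2 Camk2a probes differ, at -1.44 and -0.48 on day 7 and -0.37 and 0.15 on day 9.

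The closest relatives of the 9 genes on the array, 8 in number, were compared in the same way. Between genotypes 0 of 8 passed on either day, beside 0.215% of all genes on day 7 and 5.46% on day 9. The lowest log2 change was that of Camk2d on day 7, at -0.30 ± 0.21, and that of Shank3 on day 9, at -0.36 ± 0.15. Camk2g, another CaMKII subunit, changed by -0.26 and -0.20, the PSD-95 relatives Dlg1 and Dlg3 by 0.19 and -0.06 and by -0.17 and -0.04, Homer2 by 0.07 and 0.14, Homer3 by 0.14 and -0.09, and Nlgn2, the neuroligin of inhibitory synapses, by 0.02 and -0.14, each on day 7 and then day 9. Shank3, the third member of the Shank family, rose with the day in both genotypes. In knockout cells it was -1.11 and -0.79 on day 9, against -1.68 and -1.62 on day 7 (0.70 ± 0.15, limma adjusted p = 0.0398). In control cells it was -0.57 and -0.62 on day 9, against -1.44 and -1.36 on day 7 (0.80 ± 0.15, adjusted p = 0.0315).

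Of 20 other measured scaffolds of the postsynaptic density and their partners, 3 fell in knockout cells on day 9 and 0 rose. Of all genes, 3.96% were called lower and 1.5% higher on that day. The median of the 20 was -0.27, and that of all genes was -0.02. Begain, which binds PSD-95, was 1.27 and 1.34 in knockout cells, against 2.40 and 2.55 in control cells (-1.17 ± 0.15, limma adjusted p = 0.0200). Lin7a, a PDZ adaptor, was -0.48 and -0.85 in knockout cells, against 0.49 and 0.44 in control cells (-1.13 ± 0.18, adjusted p = 0.0291). Magi2, a scaffold related to PSD-95, was -4.78 and -4.84 in knockout cells, against -3.69 and -3.96 in control cells (-0.99 ± 0.15, adjusted p = 0.0240). In all 3 the genotypes were apart on day 9. Dlgap2, whose protein joins PSD-95 to Shank, was below background on both knockout arrays of day 7 and above it on both control arrays. Its mean was at least 2.93-fold lower in knockout cells, a bound set by detection that carries no error. The gene did not pass the test on that day. Over both days together 5 of the 20 were called lower and 0 higher, beside 9.34% and 5.48% of all genes. Among the 5 were Dlgap3, a relative of Dlgap2 (-0.67 ± 0.11), and Dlgap2 itself, for which 3 of 4 knockout arrays were below background.

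Of 18 other signalling genes, among them kinases, GTPase regulators and CaMKII inhibitors, 1 fell on day 9 in knockout cells, beside 3.96% of all genes. This was Kalrn, an exchange factor of dendritic spines. It was -0.03 and 0.16 in knockout cells, against 1.14 and 0.90 in control cells (-0.96 ± 0.15, limma adjusted p = 0.0283). It also fell between the days in knockout cells (-0.75 ± 0.15, adjusted p = 0.0344), while Camkv, a CaMK-like protein of dendritic spines, rose (0.81 ± 0.16, adjusted p = 0.0315). Over both days together 4 of the 18 were lower and 0 higher, beside 9.34% and 5.48% of all genes. The 4 were Kalrn, the kinase gene Camk4 (-0.82 ± 0.21), the spine gene Ppp1r9a (-0.57 ± 0.12) and Camk2n1, an inhibitor of CaMKII (-0.51 ± 0.12). Of 26 other synaptic adhesion genes, 3 fell on day 9, beside 3.96% of all genes. These included Lrrtm3, a leucine-rich partner of neurexins (-1.09 ± 0.21, limma adjusted p = 0.0389), and Slitrk3, an organiser of inhibitory synapses (-1.06 ± 0.19, adjusted p = 0.0352). Adgrl1, the latrophilin that binds teneurins, fell too (-0.91 ± 0.16, adjusted p = 0.0342). Over both days together 11 of the 26 were lower and 0 higher, beside 9.34% and 5.48% of all genes. Among the 11 were Lrrc4c, a netrin-G partner (-1.09 ± 0.25), Lrrtm3, and Cntnap2, a cell adhesion protein of axons (-0.95 ± 0.21). Between the days the adhesion molecule Cadm3 rose by 1.57 ± 0.22 in knockout and 1.37 ± 0.22 in control cells, and Lrrc4b by 1.01 ± 0.15 and 0.93 ± 0.15 (adjusted p of 0.0122 to 0.0231 for the 4 values). Adgrl3 rose in knockout cells (0.79 ± 0.15) and Cadm1 fell in control cells (-0.90 ± 0.20). On day 7 none of these genes was called between genotypes by limma. At an unadjusted p under 0.05, 3 scaffold, 6 signalling and 10 adhesion genes were lower and 1 adhesion gene was higher on that day, where 11.8% of all genes were lower and 7.08% higher.

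Of 8 genes of inhibitory postsynaptic sites, 1 fell on day 9, Slitrk3, beside 3.96% of all genes. Over both days together 3 were called lower, beside 9.34% of all genes. These were Slitrk3, Insyn2a (-1.23 ± 0.21) and Lhfpl4 (-0.50 ± 0.09). This list shares Nlgn2 with the relatives and Slitrk3 with the adhesion genes. Of 9 genes of the muscle side of the nerve to muscle synapse, 3 were measured and none was called. The probes of the acetylcholine receptor genes Chrna1, Chrnd, Chrne and Chrng, and of Musk and Dok7, were not above background on both arrays of any group. Over the relatives and the scaffold, signalling and adhesion lists, which leaves out the inhibitory and muscle-side lists, 72 of 78 genes were measured. Of the 72, 7 were called lower and 0 higher in knockout cells on day 9, beside 3.96% and 1.5% of all genes. Over both days together 20 were called lower and 0 higher, beside 9.34% and 5.48%. The median of the 72 over both days was -0.32, and that of all genes was -0.04.

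**Figure D4:**
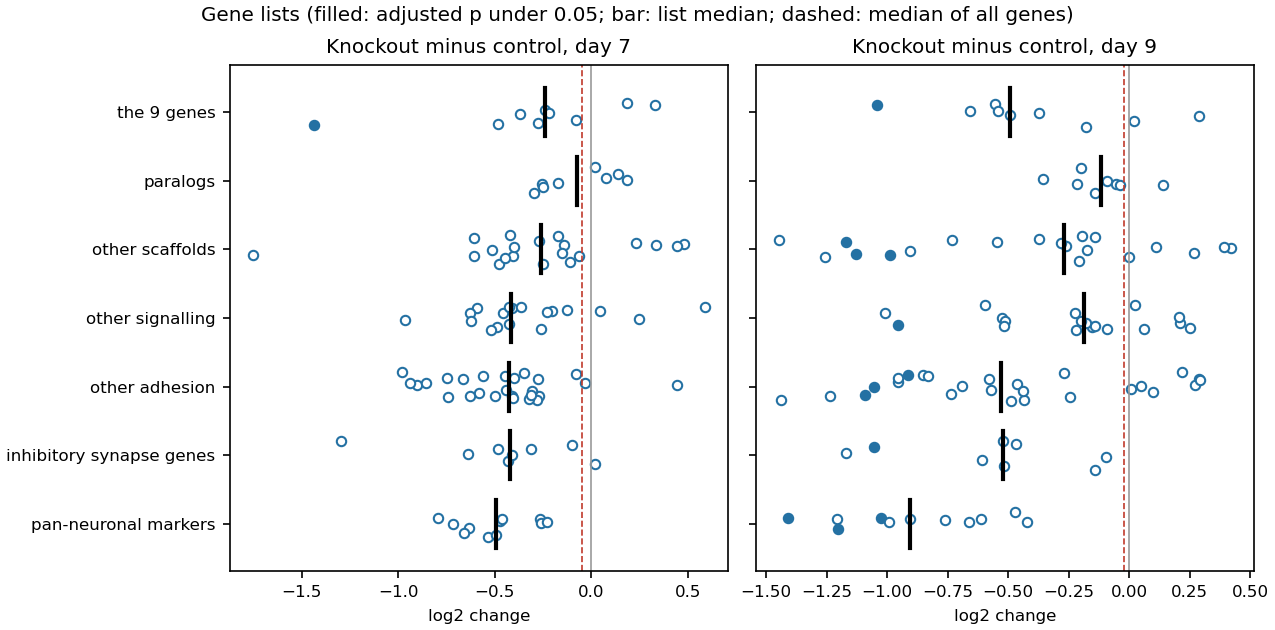
Log2 change, knockout minus control (x axis), of every measured gene of each list on day 7 (left) and day 9 (right); points are genes, filled where the limma adjusted p is under 0.05, black bars are list medians and the dashed line is the median of all genes. The medians of the 9 genes are -0.24 on day 7 and -0.49 on day 9, and those of the pan-neuronal markers are -0.50 and -0.91.

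Markers of cell types moved with genotype as well. Of all genes, 3.96% were called lower and 1.5% higher on day 9, and 9.34% and 5.48% over both days together. All 11 pan-neuronal markers were negative on both days, with 0 called on day 7, 3 called lower on day 9 and 9 over both days together. Their summed linear level was 265 to 280 in knockout against 371 to 419 in control cells on day 7, and 127 to 129 in knockout against 222 to 280 in control cells on day 9. Of 8 fibroblast markers, 7 were positive on both days, 3 were called higher on day 9 and 7 over both days together. Their summed level was 51.5 to 70.2 in knockout against 25.3 to 37.2 in control cells on day 7, and 124 to 143 in knockout against 70.1 to 79.4 in control cells on day 9. Of 8 measured motor neuron markers, 3 were called lower and 1 higher on day 9, with summed levels of 12.1 to 15.1 in knockout and 15.4 to 23.4 in control cells. Of 8 measured astrocyte and radial glia markers, 2 were called higher on day 9, with summed levels of 220 to 239 in knockout and 187 to 240 in control cells; Gfap and S100b were not kept. Of 8 oligodendrocyte lineage markers 2 were called higher on day 9, with summed levels of 7.82 to 9.22 in knockout and 6.64 to 7.89 in control cells. Of 10 measured interneuron markers 2 were called lower on day 9, with summed levels of 10.4 to 14.0 in knockout and 16.9 to 17.1 in control cells. Of 8 muscle markers 4 were measured and 1 was called higher on day 9; Myod1, Myog, Myf5 and Ttn were not kept. Of 7 pluripotency markers, all 7 were negative on day 7 with 0 called, 1 was called lower on day 9 and 5 over both days together, with a median of -1.23. Their summed level was 2.77 to 3.32 in knockout against 4.58 to 6.05 in control cells on day 7, and 2.54 to 2.56 in knockout against 4.33 to 6.42 in control cells on day 9. All 6 cell cycle genes were positive on both days, with 0 called on either day and 1 called higher over both days together. The part of these shifts in the changes of the 9 genes was not tested.

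Between the days the median change of the 11 pan-neuronal markers was -0.68 in knockout and -0.44 in control cells, with 4 called lower in knockout cells and 2 in control cells and none called higher. The summed levels of motor neuron markers on day 7 were 42.3 to 46.8 in knockout and 46.2 to 48.1 in control cells, above the day 9 values given earlier. Fibroblast markers were called higher on day 9 in 2 of 8 genes in knockout and 3 of 8 in control cells. Of all genes, 4.14% were called higher and 4.17% lower in knockout cells, and 4.11% and 3.26% in control cells.

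Camk2b and Dlg4 lie on chromosome 11, whose genes were shifted upward in knockout cells. The median over 1251 named genes of that chromosome was 0.34 for the mean of both days, against 0.01 over 13786 named genes elsewhere. Camk2b (-0.37 ± 0.15) and Dlg4 (-0.37 ± 0.10) were on the other side of 0, and 7.12% and 7.2% of the other genes of the chromosome had lower values. Set against the median of the chromosome's other 1250 genes, each stood at -0.71 over both days, and on day 9 Camk2b stood at -1.03 and Dlg4 at -0.87. Nlgn2, also on chromosome 11, changed by -0.06 ± 0.10. For the other members the median of their own chromosome lay between -0.06 and 0.09 in each knockout comparison. These differences were not tested.

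**Figure D5:**
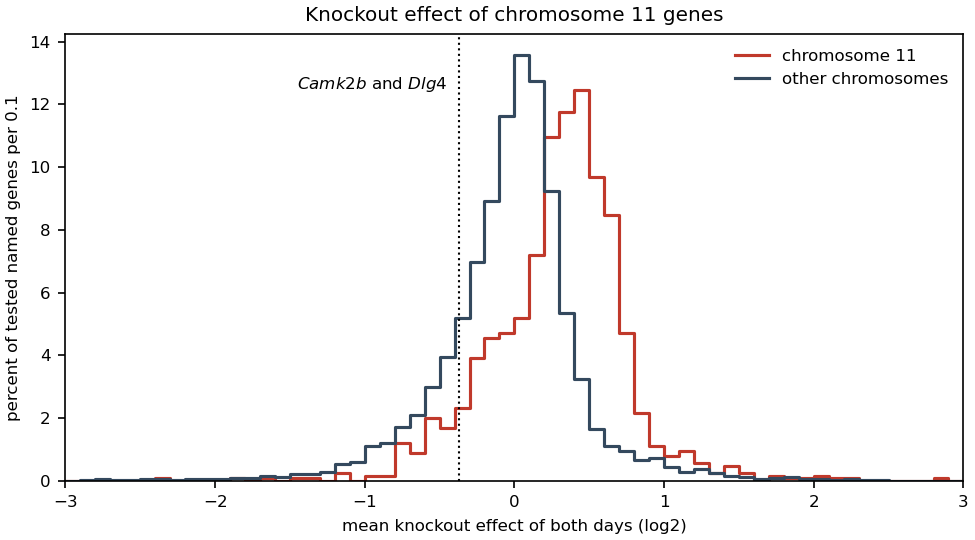
Percent of tested named genes (y axis) per 0.1 of the mean knockout effect of both days (x axis, log2), for chromosome 11 and for all other chromosomes; the dotted line marks Camk2b and Dlg4, both at -0.37. The chromosome 11 curve is centred near its median of 0.34 and the other near 0.01.

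The genes whose profile over the 8 arrays was most like that of Camk2a, by the root mean square difference of centred log2 values among 15020 named genes, were Lrtm1 (0.155), Gata2 (0.171) and Crb1 (0.211). Lrtm1 was dim, at 14.6 to 102 intensity units, and above background on only 1 of the knockout day 7 arrays. Crb1 was dim too, at 27.6 to 143. Gata2, a transcription factor of V2b interneurons and other lineages, was 0.03 and 0.10 in knockout cells on day 7, against 1.17 and 1.38 in control cells. On day 9 it was 0.99 and 0.80 in knockout cells, against 1.29 and 1.08 in control cells. As with Camk2a, the knockout day 7 arrays stood below the other 6. For the mean profile of the 9 genes the nearest were Epm2aip1 (0.0510), Pnma2 (0.0619) and Slc5a3 (0.0749). On day 7 that mean profile, centred over the arrays, was -0.36 and -0.31 in knockout cells, against -0.03 and -0.07 in control cells. On day 9 it was 0.04 and -0.05 in knockout cells, against 0.39 on each array of control cells.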

How the data were processed

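RNA was measured on 8 one-colour Agilent mouse arrays of 62976 spots. The submitters' processing notes name Agilent Feature Extraction 10.5.1. Each deposited intensity, per the file headers, is a spot's processed signal, already corrected for background and not scaled between arrays. The authors deposited log2 values as well, whose columns share a median of 5.80; their baseline stays unknown, and they served as an alternative.

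Control spots (3671) and outlier spots were left out, spots of a probe averaged, and log2 intensity taken minus each array's 75th percentile (649 to 1691 intensity units; 55.9% to 67.9% of spots above background). A probe was kept where some group had both arrays well above background; the brightest stood for a gene. Names came from RefSeq accessions (GRCm38.p6): 26300 of 55681 probes had a symbol. The array's positions are mm9 and are not printed. limma 3.58.1 in R 4.3.3 (lmFit, eBayes, two-sided) fitted 4 group means over 8 arrays, with 4 residual and 2.53 prior degrees of freedom and Benjamini-Hochberg adjustment over 24635 genes; single probes were fitted likewise over the 33193 kept probes. Calls needed an adjusted p under 0.05. The code was tested on simulated data. A lower bound on a fold sets the bright group's mean against the dim group's signals, each raised to the dimmest detected probe of its array where it lay lower.

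Named genes are the 9 with every probe, all 8 relatives, up to 4 called risers and 4 called fallers of each other list and comparison, and the 3 nearest profiles; marker genes not kept are named too, and 1 result is not reported here. Genes and lists were chosen with earlier results of these data known. All arrays share 1 slide and 1 scan, so no batch of slide or scan could be tested. Alternatives changed scaling, background correction, filter, probe choice, variance model, replicate block, arrays fitted and left out each array. The normexp alternative used the median spot signal, since the mean signal was not among the columns at hand.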

Additional observations from a re-analysis of the deposited data

How the results depend on the processing

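Of the recomputed values of single members, 722 kept their direction and side of the threshold. A call was lost in 73 and gained in 9, and the sign changed in 26, never from a called value. Most of the 722 belong to results not called in the main fit, while a loss can come only from a called one. The call of 1 gene lower on day 7 became 0 under quantile normalization, median scaling, normexp background, the authors' deposited log2 table, no filter on dim probes, the mean of kept probes and a fit of only the 2 groups compared. The call of 1 gene lower on day 9 became 0 under the same 7 settings. Over both days the 2 genes lower became 1 under quantile normalization, median scaling, normexp and the deposited table, and 0 with no filter. Dlg4 also passed over both days with a filter on all arrays (limma adjusted p = 0.0471) and a trended robust variance (0.0455). Between the days in knockout cells the 3 genes higher became 1 under normexp and 0 with no filter. In control cells the 1 gene higher became 2 under median scaling, a filter on all arrays, the mean of kept probes and a trended robust variance, and 0 under normexp, no filter and the 2 groups alone.

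The labels do not say that arrays of the same replicate number share a culture or batch. Each sample title opens with a number equal to the replicate number, without saying what it marks. Deviations of same-numbered arrays correlated across genes at r of 0.46 between the genotypes on day 7 and -0.25 on day 9. Between the days r was -0.02 in knockout and 0.25 in control cells. The 75th percentile was 1088 to 1691 on replicate 1 arrays and 649 to 854 on replicate 2 arrays. The main fit did not take the numbers as pairs, and these values do not settle whether they are. With the replicate number as a block, the genes lower on day 9 became 2, those higher on day 9 became 1 in knockout cells and 2 in control cells, and no other count of members moved by over 1.5 times. Camk2b then had a limma adjusted p of 0.0448 on day 9, 0.0465 over both days and 0.0418 between the days in control cells. Between the days in knockout cells Nlgn1 had 0.0579 and Nlgn3 0.0504. Over all genes the block gave 102 calls on day 7, beside 53, 2031 on day 9, beside 1345, and 4791 over both days, beside 3653. Adhesion genes called lower became 10 on day 9 and 15 over both days.

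With 1 array left out in turn, the genes lower in knockout cells numbered 0 to 1 on day 7, 0 on day 9 and 1 to 2 over both days, and those higher on day 9 numbered 0 to 2 in knockout and 0 to 1 in control cells. A group left with 1 array was assumed to vary like the others. Ranges that crossed 0 were, on day 7, -0.28 to 0.12 for Camk2b, -0.14 to 0.51 for Dlg2 and -0.47 to 0.028 for Nlgn3; on day 9, -0.34 to 0.38 for Nlgn3; over both days, -0.28 to 0.080 for Nlgn3; between the days in knockout cells, -0.047 to 0.27 for Camk2b, -0.53 to 0.11 for Dlg2 and -0.11 to 0.15 for Homer1; and in control cells -0.16 to 0.16 for Camk2a.

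Other values changed sign too. Under median scaling Camk2b on day 7 was 0.046, Homer1 on day 9 was 0.048 and Nlgn3 over both days was 0.077. Under normexp Shank2 on day 9 was -0.12, and with the mean of kept probes Nlgn3 on day 9 was -0.13 and Homer1 between the days in knockout cells was -0.33. Camk2a between the days in control cells was 0.0025 under quantile normalization, 0.063 under median scaling, 0.030 under normexp, 0.0028 in the deposited table and 0.15 with the mean of kept probes. The cause was not tested.

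Median scaling moved the median of all genes by 0.13 on day 7, 0.23 on day 9 and 0.18 over both days. The share of all calls that were higher was then 69.6% on day 9, against 27.5% otherwise, and 73.4% over both days, against 37.0%. The number of genes called ranged from 0 to 311 on day 7, beside 53, and from 1 to 2046 on day 9, beside 1345, and was 0 and 1 with no filter. Members' medians kept their sign on both days, over both days together and between the days under all alternatives. Calls of the other lists moved too. Over both days the 11 adhesion genes lower became 6 under median scaling and under normexp. The 4 signalling genes lower became 2 under normexp, and 1 lower and 1 higher under median scaling. On day 9 the 3 adhesion calls became 1 under median scaling and 0 under normexp. The 1 signalling call was lost under both, and the 3 scaffold calls became 1 under normexp. Dim probes limit Dlg2, Shank2 and Shank1. Under normexp Shank1 was -0.67 on day 9 (limma adjusted p = 0.338) and -0.40 over both days (adjusted p = 0.347).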

Other observations

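The 9 genes were also set against the mean change of the 11 pan-neuronal markers, a comparison chosen after seeing the data and made with no test. On day 7 the markers averaged -0.50 in knockout minus control cells and 8 of the 9 genes stood above that mean. Camk2a stood below it, with a change of -1.44 and a difference from the markers of -0.93. On day 9 the markers averaged -0.88 and 8 of the 9 genes stood above. Shank1 stood below, with a change of -1.04 and a difference from the markers of -0.16. The median difference of the 9 genes from the markers was 0.26 on day 7 and 0.39 on day 9. Between the days the markers averaged -0.82 in knockout and -0.44 in control cells, with median differences of 0.93 and 0.92. All 9 genes stood above the markers in knockout cells, and 8 did in control cells. There the change of Shank2 (-0.44) was level with that of the markers.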
